A study of Mus musculus with 272 samples.

Results

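The 10 mouse genes described here belong to the integrated stress response and the unfolded protein response: Atf4, Ddit3, Atf3, Ppp1r15a, Hspa5, Xbp1, Asns, Trib3, Ddit4 and Chac1. They were chosen by their known roles, including messages regulated by upstream open reading frames (uORFs), and kept where the deposited table holds them. All 10 were among the 15854 gene symbols of the table, each of which is above 0 in at least 56 of 272 libraries. Presence in the table was thus a condition for a member. The members and the gene lists used below were also chosen with earlier results of these data known.

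RNA was measured in mouse oocytes and preimplantation embryos at 8 stages, namely germinal vesicle (GV) oocytes, metaphase II (MII) oocytes, zygotes, 2-cell, 4-cell and 8-cell embryos, morulae and blastocysts. Each stage has 4 transcriptome libraries from pools of 20 oocytes or embryos and 3 sucrose gradients, lettered A to C, each loaded with about 100 oocytes or embryos and collected as 10 fractions. All gradient lysates contained cycloheximide, which holds ribosomes on their messages, and libraries were made from poly(A) RNA by a Smart-seq protocol. No other treatment separates the groups, and strain, genotype and donor age are not given in the sources used here. Pools of many oocytes or embryos average over individuals, and the transcriptome pools of a stage came from the same batch as its gradients, so stage and batch cannot be told apart.

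In the integrated stress response, kinases that sense unfolded protein, missing amino acids, haem shortage or double-stranded RNA phosphorylate the initiation factor eIF2. Bulk translation then falls while a few messages with uORFs, Atf4 the best known, are translated better. The unfolded protein response of the endoplasmic reticulum (ER) uses the same eIF2 arm together with the sensors IRE1, which splices the Xbp1 message, and ATF6. In oocytes and early embryos, which store maternal messages and go through a long period with little transcription, protein output is set largely by the use of stored RNA.

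The upstream AUGs of 3 members are shown because these messages are the classical uORF-regulated ones of the pathway. Each stretch is from the GENCODE vM21 transcript chosen for the gene, on the sense strand, with the upstream AUG in capitals (written ATG) and 10 bases on each side.
Atf4 upstream AUG 2: tgcggccaccATGgcgtattaga
Atf4 upstream AUG 3: ggcctaagccATGgcgctcttca
Ddit3 upstream AUG 1: cgattatatcATGttgaagatga
Ppp1r15a upstream AUG 3: tgagggcgacATGaacccgctgg
In Atf4, the second upstream frame has 3 codons before its stop, and the third starts 97 bases before the main start, has 59 codons and runs over the main start. In Ddit3 the frame shown has 34 codons and ends before the main start, and in Ppp1r15a it has 26. Of the 10 members, 6 had at least 1 upstream AUG in the chosen transcript (Atf4 and Ppp1r15a 3 each, Ddit3 and Asns 2 each, Atf3 and Xbp1 1 each), against 46.6% of 21538 genes. The windows of both Asns AUGs lie before the start site that RefSeq gives for the gene. Hspa5, Trib3, Ddit4 and Chac1 had none.

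The promoter letters of 5 members are shown because they hold motifs by which stress transcription factors are known to act on such genes. Both strands of the 250 bases before the RefSeq start site (GRCm38.p6) were searched for the ER stress element (CCAAT, 9 bases, CCACG), the C/EBP-ATF composite element TGATGNAA, the cAMP response element TGACGTCA and the XBP1-type element TGACGTGG. No 2 of these matches overlapped. Capitals mark the match, and each stretch is written on the gene's strand.
Hspa5, chr2:34772015-34772053, plus strand: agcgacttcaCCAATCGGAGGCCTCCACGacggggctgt
Asns, chr6:7693215-7693242, minus strand: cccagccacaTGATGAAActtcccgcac
Chac1, chr2:119351039-119351066, plus strand: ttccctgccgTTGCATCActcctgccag
Atf3, chr1:191183426-191183453, minus strand: cttctcgcacTTGCATCAccaagtccgc
Ppp1r15a, chr7:45526269-45526290, minus strand: gcctctccggTGACGTCAgcac
Among all 32851 promoter windows, the ER stress element was in 0.113%, the composite element in 3.45%, the cAMP response element in 1.55% and the XBP1-type element in 0.563%. The composite element was in 3 of the 10 member windows and the XBP1-type element in none of them.

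Levels are given as CPM, the reads of a gene scaled to the total of its library and written per M reads. The depth was 11.2 to 24.3 M reads in a transcriptome and 0.0102 to 43.2 M in a fraction, with a median of 18.6 M. Of 240 fraction libraries 15 had less than 1 M reads, and 14 of those were fraction 1. In the transcriptomes, marker lists followed the labelled stages: the summed level of 8 oocyte markers was 18067 to 21191 CPM in GV transcriptomes and 7.17 to 12.3 CPM in blastocysts, that of 5 2-cell markers was 2061 to 2859 CPM at the 2-cell stage and at most 84.8 CPM elsewhere, and that of 8 blastocyst lineage markers was 2260.1 to 2866 CPM in blastocysts and at most 265 CPM elsewhere. Of 10 granulosa and cumulus cell markers 3 were in the table, with a sum of 39.4 to 68.9 CPM from GV oocytes to zygotes, 5.6 to 12.9 CPM at the 2-cell stage and at most 0.227 CPM later. Of 5 sperm markers 2 were in the table, at no more than 19.5 CPM in any transcriptome. Single fraction libraries spread more widely. The blastocyst lineage sum had a median of 2157 CPM in blastocyst fractions and 800.3 CPM in morula fractions (up to 3959 CPM), with up to 1243 CPM in 4-cell and 821 CPM in 8-cell fractions. Granulosa and cumulus sums reached 378 CPM in a GV fraction, 75 CPM at the 2-cell stage and 11.8 CPM later, and sperm marker sums reached 393 CPM in a 2-cell fraction. The part of such signal in the results was not tested.

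The first comparison asked which members changed in the transcriptome between consecutive stages. Changes are differences of log2(CPM + 1) fitted with limma over all genes, and a gene counts as called, here written as rose or fell, at a Benjamini-Hochberg adjusted p under 0.05 and a change of at least 1. Of 70 member comparisons 30 were called, and 24 of these kept the call under every alternative tried. Both counts include the lower level of Ddit3 in 8-cell embryos, which was known when the genes were listed and is given as a description. CPM is relative to the library, so in these bulk samples fewer cells of a type and less RNA per cell cannot be told apart, nor can a change of total RNA be read. Nothing in the labels says that the pools came from separate collections, so p-values measure the spread between these libraries.

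Between GV and MII oocytes, 2 members rose (Asns, Ppp1r15a) and 3 fell (Ddit3, Atf4, Atf3), where 9.11% of all 14642 genes were called higher and 25.3% lower. At the step to the zygote 1 rose (Ddit3) and 2 fell (Asns, Ppp1r15a), with 5.79% and 4.48% of all genes. Between zygotes and 2-cell embryos 5 rose (Ddit3, Trib3, Atf3, Xbp1, Chac1) and 1 fell (Asns), with 25.2% and 8.71%. In 4-cell embryos, against the 2-cell stage, 4 rose (Asns, Ddit4, Hspa5, Atf4) and 3 fell (Atf3, Ddit3, Xbp1), with 31.8% and 32.9%. In 8-cell embryos, against the 4-cell stage, none rose and 3 were called lower, with 0.451% and 2.14%. These were Hspa5, Ppp1r15a and Ddit3, and nothing is read from that count because Ddit3 was known. In morulae none rose and 1 fell (Chac1), with 8.18% and 3.7%. In blastocysts 4 rose (Xbp1, Hspa5, Ddit3, Atf3) and 1 fell (Ddit4), with 18.8% and 7.97%. The median change of all genes in these 7 steps lay between -0.11 and 0.37, and quantile normalization moved it by 0.27 at the MII stage, -0.45 at the 2-cell stage, 0.20 at the 4-cell stage, 0.11 at the 8-cell stage and -0.16 at the blastocyst stage, each against the stage before.

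**Figure D1:**
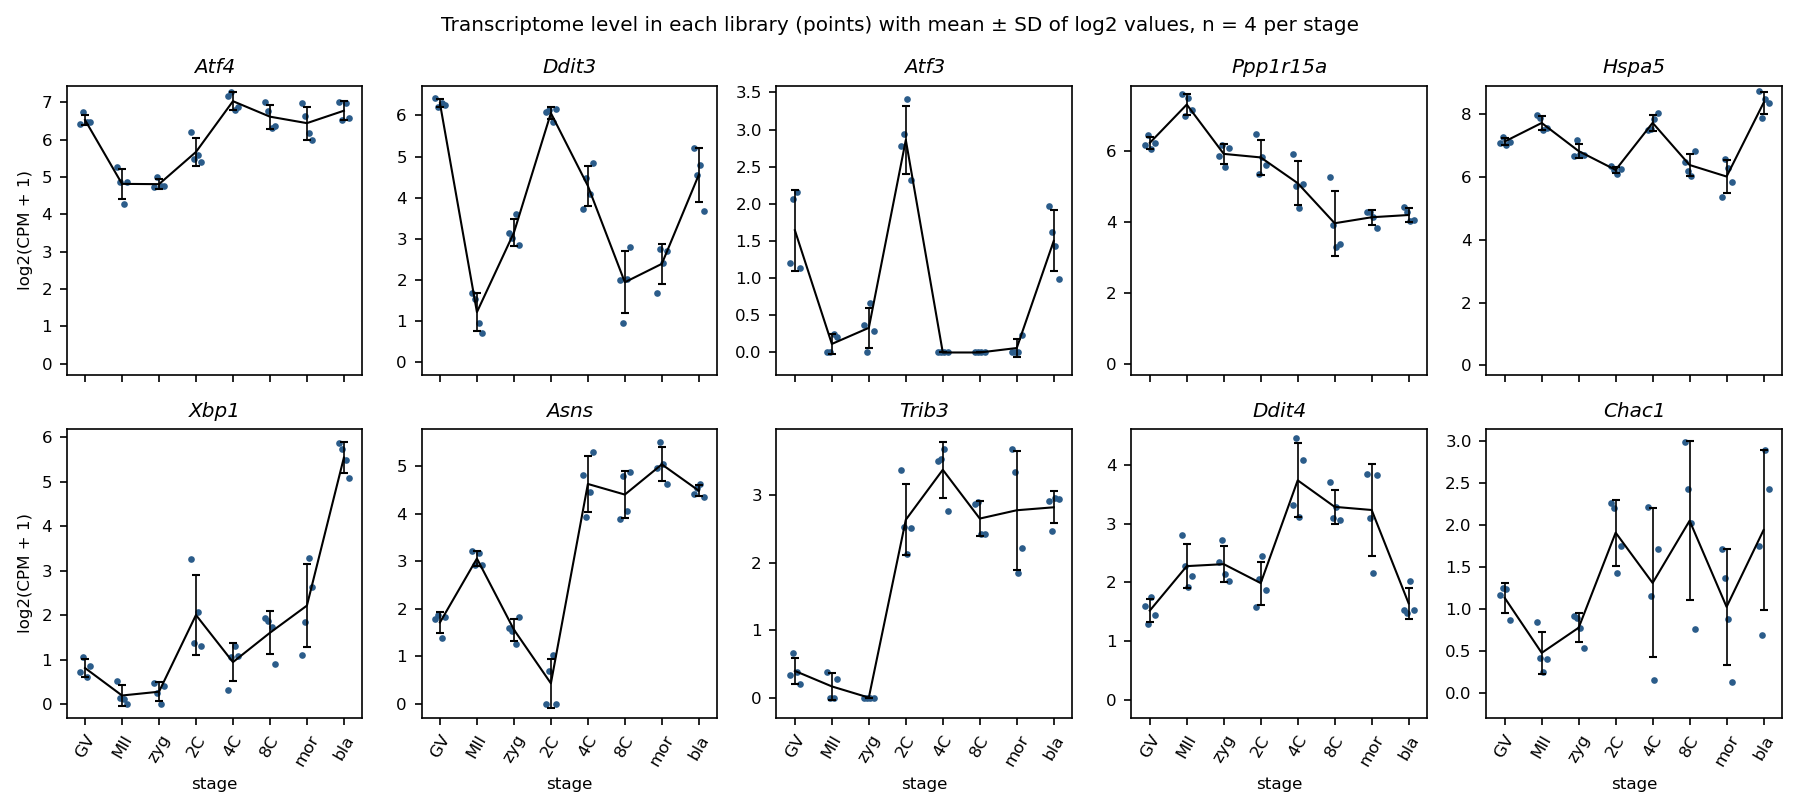
Transcriptome level of each gene by stage, as log2(CPM + 1) on the vertical axis. Points are single libraries, the line joins stage means and bars are the SD of the log2 values (n = 4). Ddit3 is high in GV oocytes and 2-cell embryos and low in MII oocytes, and Xbp1 is far above its other stages in blastocysts.

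Atf4 encodes the transcription factor at the centre of the integrated stress response. The 4 GV libraries held 85, 105, 88.6 and 87.1 CPM and the MII libraries 37.3, 28, 18.2 and 28.4 CPM, with no overlap, a change of -1.71 (SE 0.21, limma adjusted p 7.34e-09). Zygotes stayed near MII oocytes, at 25.5 to 30.9 CPM. Atf4 rose again from 2-cell embryos (73.1, 43.6, 47.1 and 41.2 CPM) to 4-cell embryos (143, 155, 109 and 117 CPM), by 1.36 (SE 0.21, limma adjusted p 3.02e-07). From the 4-cell stage on, all libraries lay between 62.9 and 155 CPM, and the ranges of neighbours in the order of mean levels overlapped from 4-cell embryos through blastocysts, 8-cell embryos, GV oocytes and morulae to 2-cell embryos.

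Ddit3 encodes CHOP, a transcription factor induced through ATF4 and known for its part in death after prolonged ER stress. Its level in GV oocytes was 85.2, 72.2, 77.9 and 75.4 CPM, and in MII oocytes 2.23, 1.9, 0.938 and 0.634 CPM. This was the largest member change on the log2(CPM + 1) scale, which understates those of low genes such as Atf3 and Trib3, at -5.07 (SE 0.31, limma adjusted p 1.84e-16), and the groups lay far apart. Ddit3 then rose in 2 steps, to 8.08 ± 2.2 CPM in zygotes (SD, n = 4; change 1.93, SE 0.31) and to 67, 69.3, 56.4 and 70.9 CPM in 2-cell embryos (change 2.90, SE 0.31). It fell by 1.77 to 19.4 ± 6.82 CPM in 4-cell embryos (SD, n = 4), and 8-cell embryos had 3.25 ± 2.05 CPM, a difference of -2.34 that is given as a description only. Blastocysts had 36.3, 22.3, 26.7 and 11.8 CPM against 2.23 to 5.71 CPM in morulae, a rise of 2.16 (SE 0.31, limma adjusted p 4.34e-07).

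Atf3, another transcription factor of the ATF family and an early gene of stress and growth signals, was low throughout and had its highest level at the 2-cell stage, with 5.84, 6.67, 9.65 and 3.98 CPM. GV oocytes had 1.31, 3.2, 3.48 and 1.2 CPM and MII oocytes at most 4 reads in any library, a fall of 1.53 (SE 0.22, limma adjusted p 2.83e-07). It rose by 2.53 (SE 0.22) at the step to the 2-cell stage, and 4-cell and 8-cell embryos had 0 reads in all 8 libraries. The level in 2-cell embryos was at least 152-fold higher than in 4-cell embryos, taking 3 reads over the 4 libraries of the 4-cell stage as the floor. Atf3 returned in blastocysts at 2.91, 2.07, 1.71 and 0.976 CPM, a rise of 1.44 (SE 0.22, limma adjusted p 1.48e-06). At such levels the fitted change depends on the pseudocount: that of morula to blastocyst was 3.87 with a pseudocount of 0.1.

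Ppp1r15a encodes GADD34, the phosphatase subunit that reverses eIF2 phosphorylation. It had 70.9, 86.3, 64.6 and 74 CPM in GV oocytes and 192, 124, 178 and 141 CPM in MII oocytes, which did not overlap, a rise of 1.08 (SE 0.29, limma adjusted p 0.0019). Without MII replicate A the change was 0.98 and was no longer called. Zygotes had 56.8, 70.7, 45.7 and 66.7 CPM, a fall of 1.39 (SE 0.29). The 2-cell libraries held 87.8, 39.3, 55.8 and 47.9 CPM, the 4-cell libraries 58.6, 30.9, 19.9 and 32.6 CPM and the 8-cell libraries 37.3, 14.1, 8.88 and 9.29 CPM, so that neighbouring stages overlapped. Morulae and blastocysts had 13.3 to 20.4 CPM. The step from 4-cell to 8-cell, -1.13 (SE 0.29, limma adjusted p 0.0125), was not called by edgeR (adjusted p 0.0979), by DESeq2, with the 2 stages alone in the fit, after quantile normalization, or without 4-cell replicate A (-0.86), 8-cell replicate C (-0.91) or 8-cell replicate D (-0.93).

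Hspa5 encodes BiP, the main HSP70 chaperone of the ER lumen and the usual reporter of the unfolded protein response. Its levels were 129 to 155 CPM in GV oocytes, 178 to 248 CPM in MII oocytes and 100.5 to 143 CPM in zygotes, and neither step was called, although DESeq2 called the first (1.04) and limma the second without zygote replicate B (-1.02). It rose from 80.1, 74.4, 66.6 and 74.6 CPM in 2-cell embryos to 178, 185, 230.0 and 259 CPM in 4-cell embryos (change 1.50, SE 0.20, limma adjusted p 2.32e-08). It fell by 1.34 (SE 0.20) to 87.9, 71.3, 64.8 and 113 CPM in 8-cell embryos. From morulae, at 39.7, 94.7, 76.5 and 56.7 CPM, it rose by 2.35 (SE 0.20, limma adjusted p 7.1e-12) to 423, 233, 357 and 328 CPM in blastocysts, its highest stage. The blastocyst libraries overlapped those of the 4-cell stage and of MII oocytes, and lay above the other stages.

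Xbp1 encodes the transcription factor whose message IRE1 splices. The table counts reads per gene, so the spliced form was not measured. Levels were at most 1.09 CPM in any GV, MII or zygote library. The 2-cell libraries held 8.6, 1.61, 3.22 and 1.47 CPM, a rise of 1.72 from the zygote (SE 0.35, limma adjusted p 7.2e-05). The following fall of 1.06 to the 4-cell stage was -0.64 and not called without 2-cell replicate E, and was also not called after quantile normalization (-0.63) or without 4-cell replicate A (-0.85). From morulae, at 1.16, 2.62, 8.71 and 5.17 CPM, Xbp1 rose to 57.4, 51.8, 43.8 and 32.8 CPM in blastocysts, a change of 3.32 (SE 0.35, limma adjusted p 9.16e-10) with no overlap.

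Asns, asparagine synthetase, is a standard target of ATF4 under amino acid shortage. Its level was 2.43, 2.62, 1.59 and 2.54 CPM in GV oocytes, 8.32, 6.52, 8.02 and 6.5 CPM in MII oocytes and 2.02, 1.9, 1.4 and 2.56 CPM in zygotes, so that the MII libraries stood above both neighbours (changes 1.34, SE 0.26, and -1.50, SE 0.26). In 2-cell embryos it had 0, 0.613, 1.02 and 0 CPM, and the fall of 1.13 from the zygote was 0.99 and not called without 2-cell replicate E or without 2-cell replicate H. In 4-cell embryos it had 27.1, 14.1, 21 and 38.4 CPM, a rise of 4.20 (SE 0.26, limma adjusted p 8.78e-17). From there to the blastocyst all libraries lay between 13.8 and 44.2 CPM and no step was called.

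Trib3, a pseudokinase induced through ATF4 and CHOP, had at most 8 reads in any GV or MII library and 0 reads in all 4 zygote libraries. The 2-cell libraries held 9.37, 4.75, 3.38 and 4.71 CPM, at least 138-fold higher than the zygote floor of 3 reads over 4 libraries (fitted change 2.64, SE 0.29, limma adjusted p 7.46e-10). From 2-cell to blastocyst its stage means ran from 5.37 to 9.69 CPM, with overlapping ranges between all neighbours in their order.

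Ddit4 encodes REDD1, an inhibitor of mTORC1 signalling. Its libraries lay between 1.45 and 5.96 CPM from GV oocytes to 2-cell embryos, where the step from GV to MII oocytes was called by edgeR (1.38), by DESeq2 (1.49) and after quantile normalization (1.46) but not in the shared limma fit. It rose by 1.75 (SE 0.30, limma adjusted p 2.47e-06) to 8.92, 20.8, 7.61 and 15.8 CPM in 4-cell embryos. It fell by 1.59 (SE 0.30) from 13.3, 7.57, 3.48 and 13.1 CPM in morulae to 1.89, 1.79, 3.09 and 1.89 CPM in blastocysts. Ddit4 was thus the one member that fell at the step where Xbp1, Hspa5, Ddit3 and Atf3 rose.

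Chac1, a glutathione-degrading enzyme induced through ATF4, stayed at or below 6.97 CPM in every library. Its rise of 1.13 from zygote to 2-cell (SE 0.41, limma adjusted p 0.0165) was lost with edgeR (adjusted p 0.0716), with DESeq2, after quantile normalization (0.32) and without 2-cell replicate E (1.02, adjusted p 0.0502). Its fall of 1.03 from 8-cell to morula (adjusted p 0.05, just inside the threshold) was lost in 10 of the alternatives, among them the replicate block (adjusted p 0.0516) and the fits without 8-cell replicate A (-0.71), 8-cell replicate B (-0.90), 8-cell replicate C (-1.04), morula replicate C (-0.98) and morula replicate D (-0.73).

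Compared per kilobase of transcript, on the scale of mean CPM divided by length, Ddit3 was the highest member in GV oocytes (87.2 CPM per kb) and 2-cell embryos (74.0), with Hspa5 at 53.3 and 28.3 and Atf4 at 52.9 and 29.7. In MII oocytes Hspa5 (81.1 CPM per kb) and Ppp1r15a (68.0) led, and in blastocysts Hspa5 (128), Atf4 (63.6), Ddit3 (27.3) and Xbp1 (21.8). The values use 1 transcript per gene and describe levels, not differences.

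The other genes of the pathway are given by lists of known targets and regulators, by their counts and median beside those of all genes. Of 28 genes of ER chaperones and ER-associated degradation, 12 rose and 1 fell from morula to blastocyst, where 18.8% of all genes were called higher and 7.97% lower (median change 0.87, against 0.16 over all genes). Examples are Calr, the lectin chaperone calreticulin, which went from 53.4 to 460.0 CPM (change 3.08) and Dnajb9, an ER J-domain cochaperone, from 76.6 to 13.3 CPM (-2.39). In zygotes, against MII oocytes, 5 of these genes rose and 5 fell, where 5.79% and 4.48% of all genes did. The 2-cell stage had 6 higher and 7 lower than zygotes (25.2% and 8.71% of all genes). Against 2-cell embryos, the 4-cell stage had 7 higher and 10 lower (31.8% and 32.9%). The 8-cell stage had 0 higher and 1 lower than its predecessor (0.451% and 2.14%). Morulae had 3 higher and 2 lower than 8-cell embryos (8.18% and 3.7%). From GV to MII 6 rose and 10 fell, beside 9.11% and 25.3% of all genes, with Manf, a secreted ER stress protein, going from 150.3 to 6.11 CPM (-4.41) and Edem2 from 96.1 to 232 CPM (1.25).

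Of 22 ATF4 targets and amino acid supply genes tested, 6 rose and 7 fell from 2-cell to 4-cell (median -0.51 against 0.02 over all genes), shares near the 31.8% called higher and 32.9% called lower among all genes. The serine synthesis enzyme Psat1 went from 67 to 918 CPM (3.76), and the cystine transporter subunit Slc7a11 from 93.9 to 1.15 CPM (-5.55). Psat1 had also risen from zygote to 2-cell, from 0.0976 to 67 CPM (5.95), when 4 genes of the list rose and 1 fell, beside 25.2% and 8.71% of all genes. From morula to blastocyst 6 rose and 4 fell, beside 18.8% and 7.97% of all genes, with Pck2 rising by 2.42 and Cth falling by 2.27. Asns and Psat1, which both feed amino acid synthesis, thus rose at the same step as Slc7a11 fell.

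Of 16 stress sensors and genes of the eIF2 arm, 9 rose and 4 fell from 2-cell to 4-cell (median 1.19 against 0.02 over all genes), where 31.8% of all genes were called higher and 32.9% lower. Subunits of the exchange factor eIF2B changed in different directions at maturation: Eif2b4 fell from 215 to 5.53 CPM (-5.05) and Eif2b1 rose from 736 to 2065 CPM (1.48) from GV to MII. Eif2b5 rose from 6.71 to 125 CPM from 2-cell to 4-cell (4.08). Of the 4 eIF2 kinases, Eif2ak1 had stage means of 23.8 to 148 CPM, Eif2ak4 of 8.19 to 59.2 CPM, Eif2ak3, which encodes PERK, of 3.33 to 15.3 CPM and Eif2ak2 of 0.0396 to 3.43 CPM. Ern1, which encodes IRE1, went from 222 CPM in GV and 464 CPM in MII oocytes to 4.75 CPM in blastocysts, the stage at which its substrate Xbp1 was highest. Eif2ak3 rose from morula to blastocyst, from 3.33 to 8.17 CPM (1.14).

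Of 10 immediate early genes, 7 rose and 1 fell from zygote to 2-cell (median 1.42 against 0.37 over all genes), beside 25.2% and 8.71% of all genes. At the 4-cell stage 0 rose and 7 fell (median -1.53 against 0.02), beside 31.8% and 32.9%. Ier2 went from 0.191 to 23 CPM (4.22) and Ier3 from 17.8 CPM at the 2-cell stage to 0.112 CPM (-4.08), the step at which Atf3 went to 0. In blastocysts 3 rose, beside 18.8% of all genes, among them Jun (1.37) and Ier2 (1.81). Of 5 tested messages with regulatory uORFs outside the members, 2 rose and 1 fell from GV to MII, beside 9.11% and 25.3% of all genes. At the step to the zygote 0 rose and 1 fell (5.79% and 4.48%), and to the 2-cell stage 1 and 1 (25.2% and 8.71%). Ppp1r15b, the constitutive paralogue of Ppp1r15a, rose from 8.1 to 20.2 CPM from GV to MII (1.22). It fell to 3.09 CPM in zygotes (-2.37) and rose to 20.6 CPM in 2-cell embryos (2.40). Slc35a4 fell from GV to MII (-1.12), and Eprs fell from zygote to 2-cell (-1.28).

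The genes whose stage means followed those of Ddit3 most closely were Sptlc2, which encodes a subunit of serine palmitoyltransferase (Pearson's r 0.986 over 8 stage means), Sec61a1, which encodes the pore of the ER translocon (0.980), and Zfp956 (0.964). For Atf4 they were Zbtb48 (0.991), Mon1a (0.990) and Ercc1 (0.990), and for Hspa5 Gfm2 (0.916), Abcc1 (0.908) and Golga3 (0.883). These are the 3 highest values among 10769 genes for each member, and the points share their libraries.

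The second comparison asked where the messages lay in the gradient. Messages with more ribosomes sediment further. The labels number the fractions without saying more. By convention the heavy side was fractions 6 to 10 and the light side 1 to 5. CPM in a fraction refers to that library's total, so values are relative to the other messages there. The mean CPM of a side was compared between sides on the log2 scale with limma, over all 15172 genes tested.

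Of 80 member comparisons of the heavy and light sides, 4 were called: Hspa5 and Trib3 in 2-cell embryos and Ddit4 and Asns in 8-cell embryos, all 4 towards the heavy side. The background was 18.2% of genes called in 2-cell and 9.05% in 8-cell embryos. An unadjusted limma p under 0.05 was found for 4 members in 2-cell and 2 in 8-cell embryos, beside 4547 and 3026 of all 15172 genes. In these stages edgeR called 3 and 1 members. Its 2-cell calls included Atf3 (-11.92) and Xbp1 (-9.93) towards the light side, each with reads in 1 gradient only. In 2-cell embryos Ddit3 differed by -2.64 (limma adjusted p 0.0868), called with a pseudocount of 0.1 (-4.79). Ppp1r15a differed by -2.34 in 4-cell embryos, called with fractions 1 to 4 against 7 to 10 (-3.88). In the shared limma fit, which did not use the pairing of the sides, no member was called in GV oocytes (0.0725% of all genes), MII oocytes (3.23%), zygotes (3.01%), 4-cell embryos (16.3%), morulae (5.81%) or blastocysts (2.74%). With the gradient as a replicate block, limma called 1 member in 4-cell embryos and 1 in blastocysts. With the stage alone in the fit, it called 2 in morulae and 2 in blastocysts. At an unadjusted limma p under 0.05 there were 0 members in GV oocytes, 1 in MII oocytes and 2 in zygotes, beside 828, 1967 and 2003 of all genes. There were 1 in 4-cell embryos, 2 in morulae and 4 in blastocysts, beside 4347, 2330 and 1564 of all genes. Across these stages edgeR called 0, 0, 0, 1, 1 and 0 members. The shares of all genes called by edgeR, with the block or with the stage alone are not given here. All 4 calls were lost with the stage alone in the fit, and each was lost without gradient A of its stage (Hspa5 1.62, Trib3 1.64, Ddit4 1.77 and Asns 1.53).

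**Figure D2:**
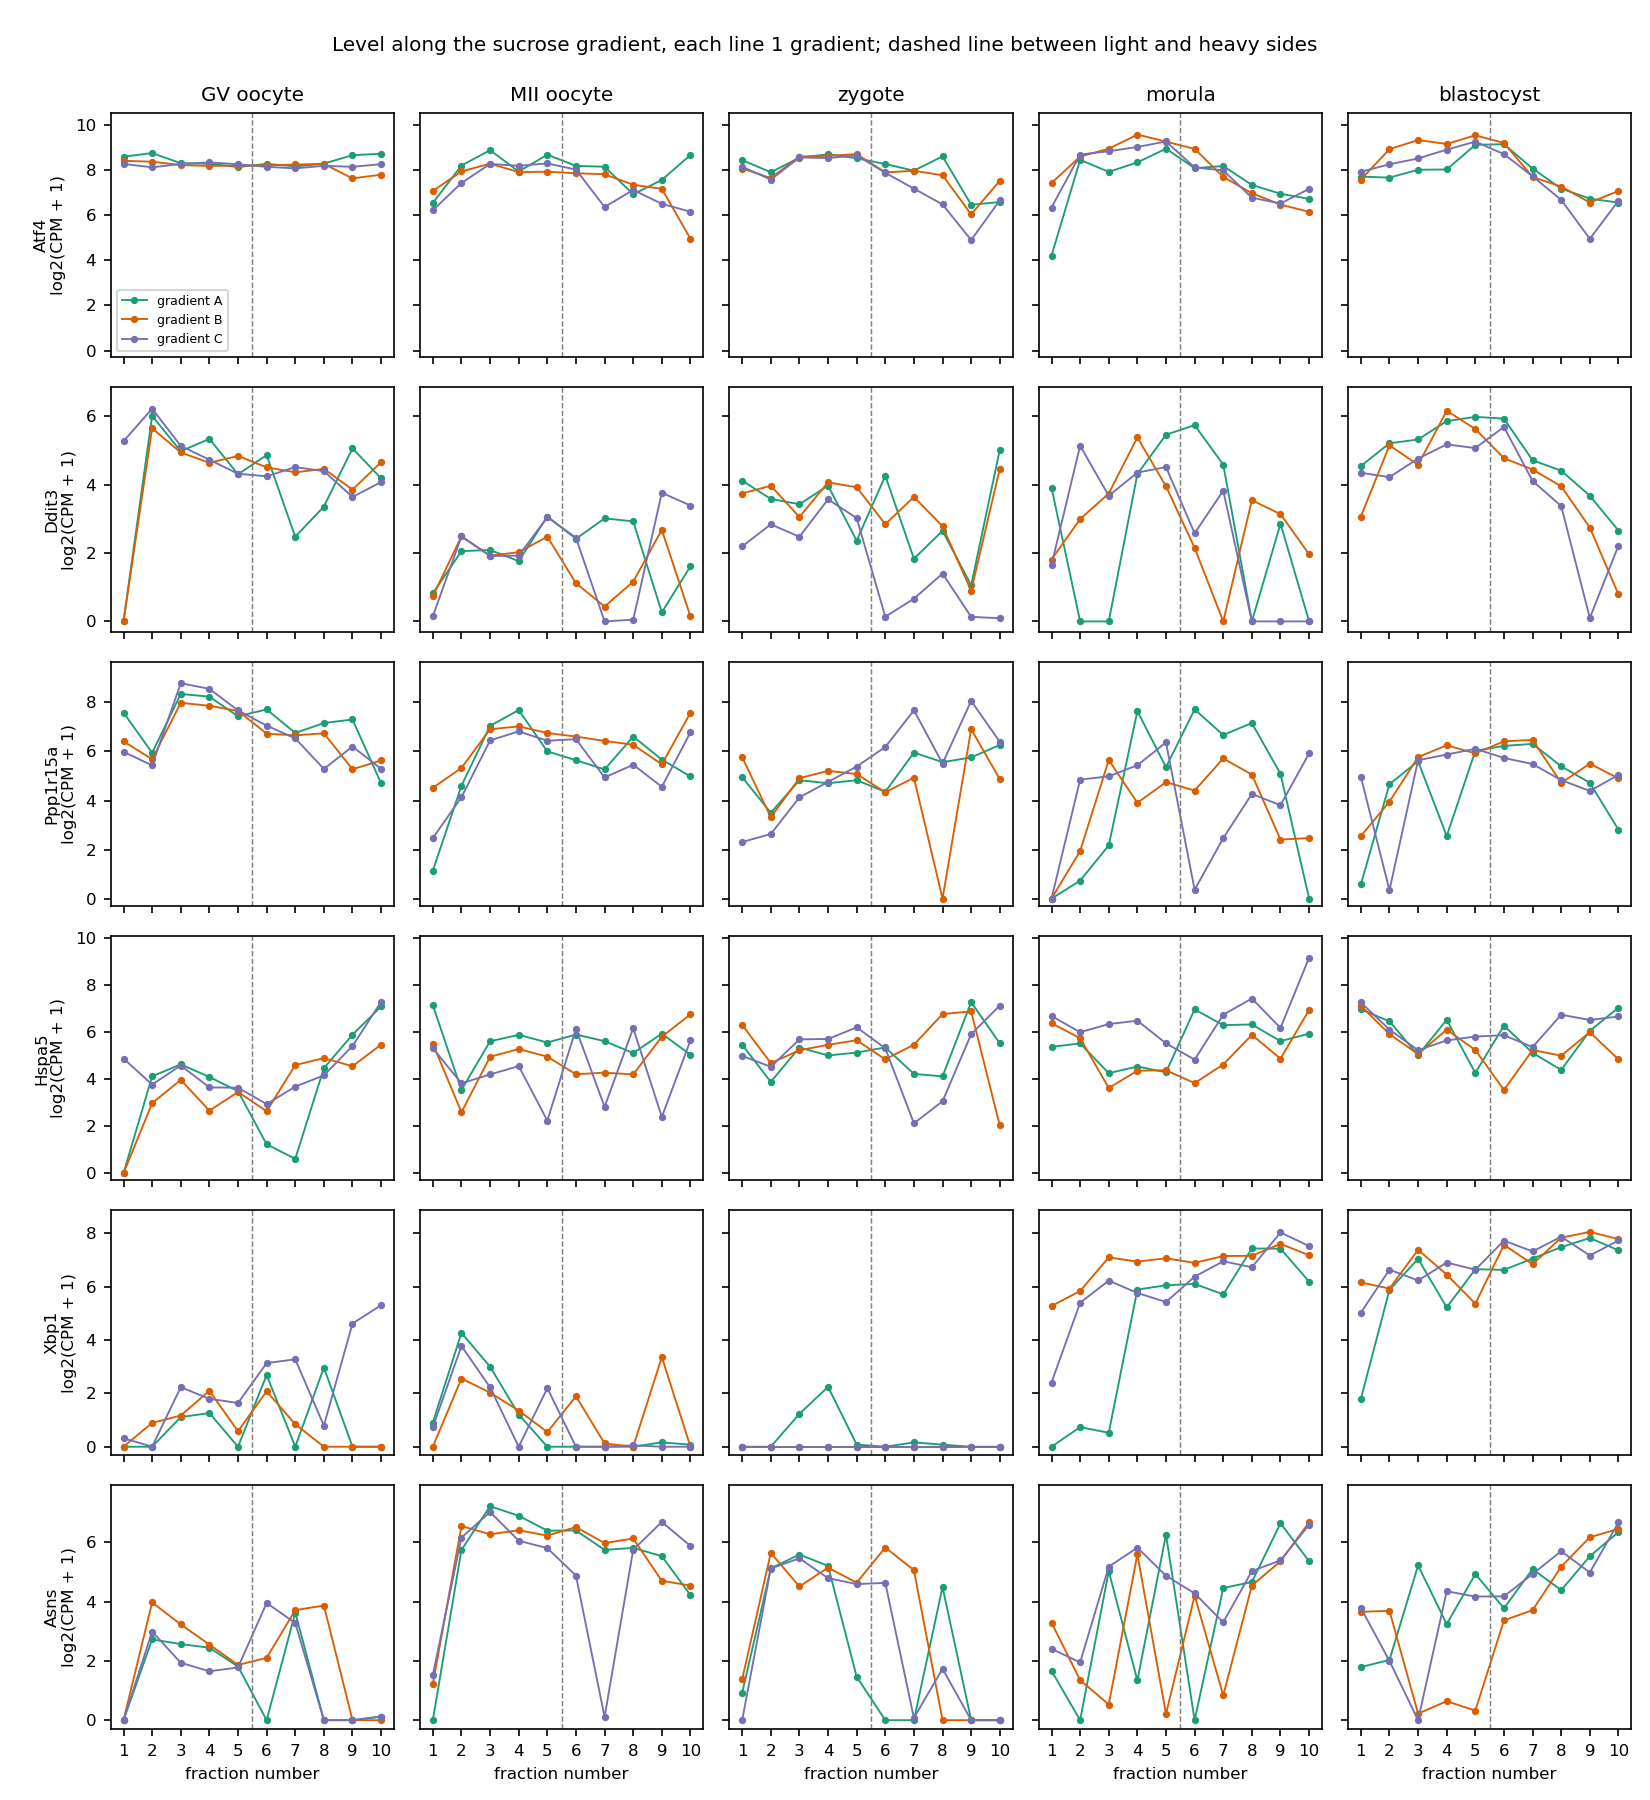
Level of 6 members along the gradient in GV oocytes, MII oocytes, zygotes, morulae and blastocysts, as log2(CPM + 1) against fraction number, with 1 line per gradient (n = 3) and a dashed line between the light and heavy sides. Atf4 is level across the gradient in GV oocytes and highest on average in fraction 5 in morulae and blastocysts, and Xbp1 and Asns are highest in fractions 8 to 10 in blastocysts.

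Atf4 was spread evenly over the gradient of GV oocytes. Fraction means ran from 284 ± 16.9 CPM in fraction 7 to 344 ± 77.0 CPM in fraction 2 (SD, n = 3), and the heavy side held 344, 263 and 284 CPM against 342, 308 and 302 CPM on the light side of gradients A to C. From zygotes on, its mean was highest in fraction 5 at every stage but the 2-cell stage, where it was highest in fraction 7. In 4-cell embryos, with 1497 ± 478 CPM in fraction 5 (SD, n = 3), the sides held like amounts (difference 0.00). In blastocysts it went from 633 ± 96.3 CPM in fraction 5 to 76.0 ± 40.5 CPM in fraction 9, and in 8-cell embryos from 1908 ± 58.3 CPM in fraction 5 to 253 ± 179 CPM in fraction 10 (SD, n = 3). The heavy side was below the light side in all 3 gradients of zygotes (224, 189 and 118 against 346, 331 and 322 CPM), morulae (188, 194 and 173 against 283, 482 and 414 CPM) and blastocysts (234, 233 and 170.4 against 295, 523 and 398 CPM), with no overlap between sides. The differences were -0.95, -1.05 and -0.90 (SE 0.33), with limma adjusted p of 0.124, 0.0551 and 0.199, and so were not called. In morulae, edgeR called the difference (-1.58, adjusted p 0.0399), as did limma with the stage alone in the fit (adjusted p 0.0178) and after quantile normalization.

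Ddit3 had its highest mean over all fractions in blastocysts and GV oocytes, and at both stages the light side held more of it. In GV oocytes fraction 2 was the highest of all fractions in each gradient, with 63.8, 49.3 and 74 CPM. The sides held 18.4, 20.1 and 17.5 CPM (heavy) against 30.6, 26.2 and 38.1 CPM (light), which did not overlap. In blastocysts the highest fractions were 4 to 6, with means of 54.4, 47.9 and 45.8 CPM, and fraction 10 had 3.24 ± 2.32 CPM (SD, n = 3). There the sides held 24.6, 13.6 and 16 CPM against 43.5, 36.9 and 26.3 CPM, again without overlap, and the difference was not called. In 2-cell embryos, where the transcriptome level was 65.9 ± 6.51 CPM (SD, n = 4), the mean over all fractions was 6.49 CPM and 20 of 30 fraction libraries had 0 reads.

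Ppp1r15a had its highest fraction in fraction 3 in each GV gradient, at 324, 252 and 439 CPM, and 37.3 ± 11.9 CPM in fraction 10 (SD, n = 3). The light side held 209.6, 164 and 224 CPM and the heavy side 128, 79.5 and 74.5 CPM. In zygotes the order was the opposite, with 24, 32 and 18.5 CPM on the light and 51.2, 39.1 and 134 CPM on the heavy side, and the sides did not overlap at either stage. Neither difference was called, and the change of the difference between stages was not called from GV to MII or from MII to zygote.

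Atf3 had under 1 CPM on average over the fractions of GV oocytes, MII oocytes, zygotes and morulae and 0 reads in all fractions of the 4-cell and 8-cell stages, as in the transcriptomes of those stages. In blastocysts its highest mean was in fraction 7 in all 3 gradients, and 22 of 30 fraction libraries had 0 reads.

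Hspa5 was highest in fraction 10 of each GV gradient, at 134, 43.1 and 154 CPM, and its heavy side (43, 24.5 and 46.2 CPM) stood above the light side (13.2, 7.33 and 17.3 CPM) in all 3 gradients. Its mean fraction, the average fraction number weighted by CPM, was 7.68 ± 0.325 in GV oocytes (SD, n = 3), higher than that of 98.3% of genes. In 2-cell embryos the sides were 88.4, 8.88 and 33.6 CPM (heavy) and 1.89, 2.26 and 10.1 CPM (light), a difference of 2.73 (SE 0.82, limma adjusted p 0.0153). That value rested on few fractions: fraction 10 held 353, 0 and 164 CPM in the 3 gradients. In 4-cell embryos the difference of 2.25 (limma adjusted p 0.0527) was called with the gradient as a replicate block (adjusted p 0.0353) and by edgeR (3.48, adjusted p 0.0131). Gradient C, with 17.1 CPM heavy and 17.7 CPM light, did not share it, and without that gradient the difference was 3.40 (limma adjusted p 0.00477). In blastocysts, where the transcriptome level was highest, the sides held 64.8, 33.6 and 78.2 CPM and 69.9, 66.5 and 71.5 CPM and overlapped.

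Xbp1 had a mean over all fractions of at most 3.75 CPM up to the 8-cell stage, against 95.1 CPM in morulae and 132 CPM in blastocysts. In morulae the heavy side held 107, 148 and 151 CPM and the light side 25, 97.1 and 43 CPM, and in blastocysts 159.8, 203 and 191 CPM and 65.6, 84.8 and 84.5 CPM. The sides did not overlap at either stage, and the highest means were 209 ± 46.7 CPM in fraction 9 of morulae and 213 ± 30.5 CPM in fraction 8 of blastocysts (SD, n = 3). The differences of 1.48 and 1.23 were not called in the shared fit and were called with the stage alone in the fit (limma adjusted p 0.0467 and 0.00142).

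The sides stood in one order for Asns in MII oocytes and zygotes and in the other in morulae and blastocysts, although no change between consecutive stages was called in the shared limma fit. In MII oocytes it was highest in fraction 3 (118 ± 37.0 CPM), with 50.8, 53.7 and 48.3 CPM on the heavy and 80.3, 65.6 and 64.4 CPM on the light side. In zygotes the sides were 4.3, 17.6 and 5.24 CPM and 23.9, 26.1 and 25.3 CPM, and fractions 9 and 10 had 0 reads in all 3 gradients. The zygote difference (-1.62, limma adjusted p 0.265) was called with fractions 1 to 4 against 7 to 10 (-2.64, adjusted p 0.034). In morulae (36.9, 36.2 and 39.1 against 22.2, 11.6 and 25.2 CPM) and blastocysts (38.3, 42.9 and 45.9 against 15.9, 4.9 and 10.4 CPM) the heavy side was the higher one in each gradient. The blastocyst mean fraction was 7.76 ± 0.473 (SD, n = 3), above that of 99% of genes, and fraction 10 was highest in each gradient, at 80.4, 86.6 and 101 CPM. The blastocyst difference of 2.05 (SE 0.69, limma adjusted p 0.128) was called with the gradient as a replicate block (adjusted p 0.0488) and with the stage alone in the fit. The 8-cell difference of 2.16 (SE 0.69, limma adjusted p 0.0409) was called but rested on 37.5, 5.47 and 0.314 CPM on the heavy side, with 22 of 30 fraction libraries at 0 reads, and was also lost without gradient B (1.89).

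Trib3 in 2-cell embryos gave the second call at that stage, 3.18 (SE 0.84, limma adjusted p 0.00618), from heavy sides of 83.5, 60.5 and 55.1 CPM and light sides of 0.0971, 4.01 and 70.1 CPM. Most of its reads lay in 1 or 2 fractions near the border between the sides: fraction 6 in gradient A (418 CPM), fraction 7 in gradient B (300.3 CPM) and fractions 5 and 6 in gradient C (349 and 276 CPM). Without fractions 5 and 6 the difference was 1.03 and not called. A fit by edgeR gave 0.57 (adjusted p 0.864), but its reads left out fraction 7 of gradient B, so it was not the same comparison. Zygotes had 0.274, 0.0108 and 0.23 CPM on the heavy and 1.34, 1.29 and 2.55 CPM on the light side, with at most 127 reads on a side.

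Ddit4 was higher on the heavy side in each gradient of GV oocytes, zygotes, 4-cell and 8-cell embryos, morulae and blastocysts. In 8-cell embryos the heavy side held 85.2, 53.7 and 99.7 CPM and the light side 14.9, 15.1 and 28.6 CPM, with no overlap, a difference of 1.99 (SE 0.53, limma adjusted p 0.0112) which edgeR did not call (1.52, adjusted p 0.217). Its mean fraction there was 7.59 ± 0.391 (SD, n = 3), above that of 95.7% of genes. In morulae (34.2, 30.8 and 47 against 22.7, 14 and 12.2 CPM) and blastocysts (17.7, 19.9 and 15.7 against 14.5, 6.96 and 3.8 CPM) the sides did not overlap either, and the differences were not called. In morulae the difference was called with fractions 1 to 4 against 7 to 10 (1.91, limma adjusted p 0.0268) and with the mean over fractions of log2(CPM + 1) (1.61, limma adjusted p 0.0444). Chac1 had overlapping sides at every stage, with stage means over all fractions of 5.84 to 20.2 CPM.

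**Figure D3:**
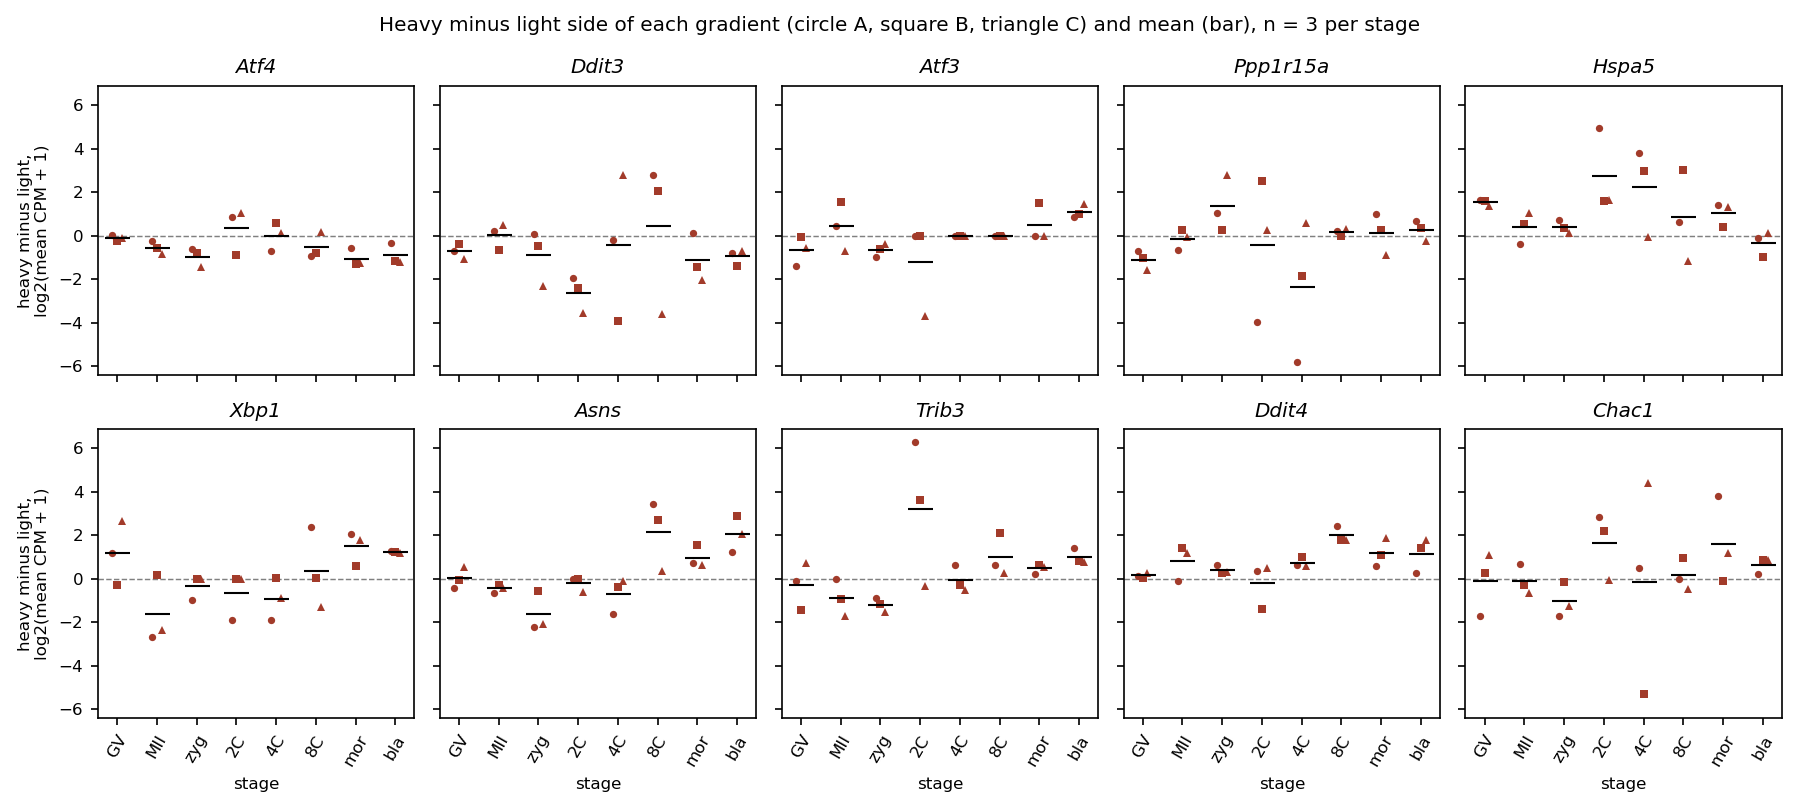
Heavy minus light side of each gradient on the log2(mean CPM + 1) scale, by gene and stage, with a circle for gradient A, a square for B, a triangle for C and a bar for the mean (n = 3). Atf4 lies below 0 in all 3 gradients of zygotes, morulae and blastocysts, and Asns above 0 in all 3 of 8-cell embryos, morulae and blastocysts.

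The sides did not overlap for 7 of 10 members in zygotes, where this held for 32.8% of all 15172 genes, and for 5 in blastocysts (35.4% of all genes), 4 in morulae (28.7%), 3 in GV oocytes (22.4%) and 2 in MII oocytes (33.8%). It held for 1 member each in 4-cell (16%) and 8-cell embryos (19.4%) and for 0 in 2-cell embryos (22.1%). Non-overlapping sides were common among all genes, so such a count over 10 members says little by itself. In zygotes Atf4, Atf3, Trib3 and Asns were lower and Hspa5, Ppp1r15a and Ddit4 higher on the heavy side. Atf3 and Trib3 were near the floor there, with means of 0.0332 and 0.171 CPM on the heavy and 0.655 and 1.73 CPM on the light side. In blastocysts Atf4 and Ddit3 were lower and Xbp1, Ddit4 and Asns higher. Among the 3 classical uORF messages in blastocysts, Atf4 and Ddit3 had mean fractions of 4.73 ± 0.299 and 4.63 ± 0.101, lower than the median of 5.39 over all genes, and Ppp1r15a had 5.73 ± 0.214 (SD, n = 3). These were above the mean fractions of 28.4%, 25.7% and 61.7% of genes. Atf4 and Ddit3 thus did not lie below the lower quartile of all genes in blastocysts, 4.6. At other stages some of these messages did, as Ddit3 (4.82) and Ppp1r15a (4.73) in GV oocytes, where the quartile was 5.19. So did Atf4 in zygotes (4.7 against 4.73) and Ddit3 in 2-cell embryos (3.81 against 4.02) and morulae (4.67 against 4.77). The remaining stage values of these messages were not below the quartile of their stage.

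The third comparison tested whether the difference between sides changed from one stage to the next, as an interaction term. Of 70 member comparisons 1 was called, the shift of Trib3 towards the heavy side from zygote to 2-cell (4.38, SE 1.19, limma adjusted p 0.0251), where 4.65% of all genes were called. It carries the limits of the Trib3 values above, and it was lost in 10 of the alternatives, fits without a gradient of another stage not counted. Among them were edgeR (adjusted p 0.288), again without fraction 7 of 2-cell gradient B, quantile normalization and the 2 stages alone in the fit. The fits without 2-cell gradient A (2.83) or B (4.16) and without zygote gradient A (4.54), B (4.38) or C (4.21) also lost it. No member was called in the shared limma fit from GV to MII (0.185% of all genes), MII to zygote (0.0198%), 2-cell to 4-cell (11.7%), 4-cell to 8-cell (2.47%), 8-cell to morula (0.534%) or morula to blastocyst (0.0198%). At an unadjusted limma p under 0.05 there were 1, 0, 1, 1, 0 and 0 members in these steps. Of all genes 572, 426, 3999, 2436, 1286 and 507 reached it. In the same steps edgeR called 0, 0, 0, 1, 1 and 0 members, both of its calls being Asns.

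The mean level over the 10 fractions did not always follow the transcriptome level, as the plot of both by stage shows. Xbp1 in morulae had 95.1 CPM over the fractions and 4.41 ± 3.31 CPM in transcriptomes (SD, n = 4). Ddit4 in zygotes had 119 CPM over the fractions and 4.05 ± 1.12 CPM in transcriptomes, and Trib3 in 4-cell embryos 220.4 and 9.69 ± 2.67 CPM. The opposite held for Asns in 4-cell embryos, with 0.459 CPM over the fractions, 16 reads in all 30 fraction libraries, and 25.1 ± 10.3 CPM in transcriptomes. For Ddit3 in 2-cell embryos the values were 6.49 and 65.9 ± 6.51 CPM, and for Hspa5 in blastocysts 64.1 and 335 ± 79.1 CPM. Atf4 was higher over the fractions than in transcriptomes at every stage, with 217 against 28 CPM in MII oocytes and 877 against 131 CPM in 4-cell embryos. The 2 kinds of library differ in input and in what their totals stand for, so these pairs are set side by side without a test.

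**Figure D4:**
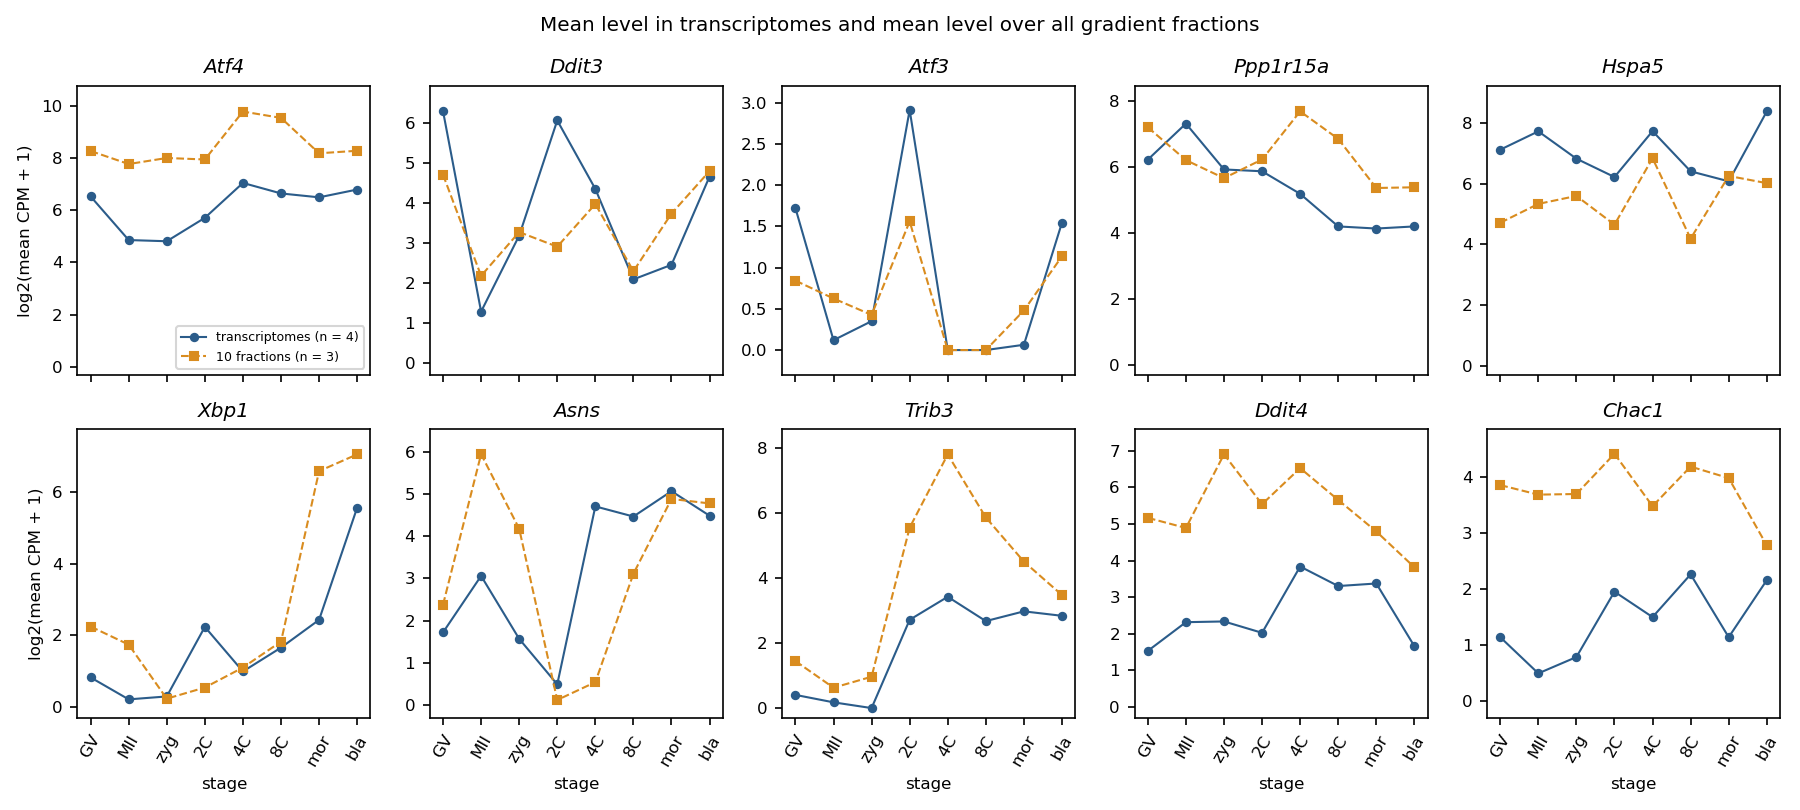
Mean transcriptome level (circles, n = 4 libraries) and mean level over the 10 fractions (squares, n = 3 gradients) of each gene by stage, both as log2(mean CPM + 1). The lines run apart for Atf4, Ddit4 and Chac1 at all stages and cross for Asns, which is higher in fractions of MII oocytes and higher in transcriptomes of 4-cell embryos.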

How the data were processed

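The authors deposited 1 table of CPM per gene symbol and library. Per the submitters' processing notes, Trim Galore 0.6.7, FastQC, HISAT2 2.2.1, featureCounts 2.0.1, edgeR and GRCm39 were used; their settings are not given in the sources used here. Repeated symbols (76 groups, 159 symbols) made some deposited columns sum to more than CPM can, although every column is recorded as CPM. The signal values of these columns had been scaled to CPM by the authors before the files were deposited, like the others. Of each group 1 symbol was kept (15771), and no member was affected. The kit does not mark strand, so antisense reads cannot be told apart. Whole reads were recovered from the steps of the deposited CPM (tolerance 0.05 reads), 100% of values being whole. Read sums of the gradient sides, and edgeR on them, left out fraction 7 of 2-cell gradient B, which the limma fits kept. Its values were whole reads too. At the 2-cell stage edgeR and limma thus did not compare the same fractions. In 288 pairs of replicates no pair agreed within sampling noise (lowest chi-square per degree of freedom 2.55). Read counts and floors of 3 reads cover counting error only. Columns of the 2-cell transcriptomes are lettered E to H and were used without matching them to the labels' letters.

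The tests used limma 3.58.1 in R 4.3.3 (lmFit, eBayes with trend) on log2(CPM + 1), with all stages in 1 fit. Genes needed a CPM of 1 in 4 of 32 transcriptomes or 3 of 48 side means. Fold changes on this scale understate the change of low genes. Scripts were tested on simulated data. Alternatives were edgeR 4.0.16 and DESeq2 1.42.0 on recovered reads, a pseudocount of 0.1, no filter, quantile normalization, only the groups compared, other sides, leaving out each replicate and a replicate block. Heavy and light sides of a gradient come from the same lysate, which pairs them by design (median correlation of their deviations 0.0973, above 0.1 in 11 of 24 gradients).

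The members and gene lists were chosen with earlier results of these data known. All 10 members are named in each comparison, at most 2 called genes from a list per transcriptome step (1 higher, 1 lower), and the 3 genes most alike to Ddit3, Atf4 and Hspa5; the eIF2 kinases and Ern1 were added by role, outside that rule and after their values were seen. Transcripts are GENCODE vM21 (complete, principal, RefSeq-matched, longest), and promoters are those of RefSeq on GRCm38.p6.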

Additional observations from a re-analysis of the deposited data

Results flagged for a closer look

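In 5 of 77 groups of 4 transcriptome libraries with reads of a member, 1 library stood apart by Dixon's criterion for the gap to the nearest library as a share of the range, and chance gives about 1 in 20. These were the highest library of Atf4 in zygotes (gap 0.886 of the range, 30.9 CPM against 25.5 to 26.1 CPM), the highest of Atf3 in morulae (1, the one library with reads of the gene), the highest of Hspa5 in zygotes (0.873, 143 CPM), the lowest of Trib3 in blastocysts (0.891, 4.54 CPM) and the highest of Ddit4 in blastocysts (0.923, 3.09 CPM). Atf4 and Hspa5 were highest in the same zygote library, replicate B.

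The position of Trib3 in the gradient differed between zygotes and 2-cell embryos by the interaction test (4.38 towards the heavy side, limma adjusted p 0.0251). It was higher on the heavy side in 2 of 3 2-cell gradients and in 0 of 3 zygote gradients.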

How the results depend on the processing

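No called result of a member changed direction under any alternative. In the transcriptome 30 member comparisons were called, 26 to 31 when 1 library was left out and 27 to 32 under the other settings. The letters of the transcriptome pools do not pair them (correlations of deviations -0.178 to 0.195, median 0.016). With the replicate block 16 of the calls in the 5 steps without the 2-cell stage were found, 16 in the same 28 libraries without the block and 17 in the shared fit. For the sides of the gradient 4 members were called, 3 to 8 when 1 gradient was left out, 6 with the gradient as a replicate block, 7 with fractions 1 to 4 against 7 to 10 and 8 with the mean over fractions of log2(CPM + 1). For the shift between stages 1 was called, 0 to 2 when 1 gradient was left out and 1 with the block. It was 0 with fractions 1 to 4 against 7 to 10, with only the groups compared and after quantile normalization, and 2 with edgeR, without fraction 1, with the mean over fractions of log2(CPM + 1) and with a pseudocount of 0.1. The block changed no call of a member other than those given beside Hspa5, Asns and Chac1. Low genes depended on the scale: the change of Trib3 from zygote to 2-cell was 2.64 on the log2(CPM + 1) scale, 5.72 with a pseudocount of 0.1 and 9.66 with edgeR, and that of Xbp1 was 1.72, 3.40 and 3.60. Fraction 1 libraries and 0 reads in fractions of 2-cell to 8-cell embryos limit what the gradients can show.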
